A study of Mus musculus with 21 samples.

Results

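Germ cells and Leydig cells of the mouse testis were compared by the mature microRNAs (miRNAs) in their small RNA libraries. The comparison takes 6 of the 21 libraries of the study, 3 labelled germ cells and 3 labelled Leydig cells, assigned by sample label, and the 1556 mature entries among 61628 in the deposited table. Both types were primary cells isolated from mice of the C57BL/6J strain and kept untreated at 37 °C and 5% CO2 in DMEM/F12 with 10% FBS (fetal bovine serum). Age, germ cell stage and purity are not given in the labels. Nothing in the labels ties libraries to different mice, so p-values may measure only technical spread. The other 15 libraries, 3 each of peritubular myoid (PTM), Sertoli, vascular (VSMC), intestinal (ISMC) and tracheal (TSMC) smooth muscle cells, helped to estimate the spread between libraries.

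A miRNA is cut from a hairpin precursor, whose arms give the 5p and 3p products, and is loaded on an Argonaute protein. It finds its target messages mainly through its seed, the bases 2 to 8 from the 5′ end, so miRNAs with the same seed form a family with overlapping targets. Germ cells divide, pass through meiosis and form sperm, and they also make piRNAs, small RNAs that silence transposons. Leydig cells are the testosterone-producing cells between the tubules. In mice, miR-34b/c and the miR-449 cluster are known to act redundantly in the meiotic and haploid germ line.

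The sequences that the main results turn on are shown here with the seed in capitals, from RefSeq on build GRCm38.p6 (the assembly of mm10). The first set has the seed GGCAGUG or AUCACUA and is shown because miR-34a-5p shares its seed with miR-449a-5p and did not share its direction.
miR-449a-5p: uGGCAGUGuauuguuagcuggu
miR-34b-5p: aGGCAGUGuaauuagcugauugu
miR-34a-5p: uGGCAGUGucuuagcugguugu
miR-34b-3p: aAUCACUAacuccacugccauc
miR-34c-3p: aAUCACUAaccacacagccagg
These lie at chr13:113037549-113037570 on the plus strand, in an intron of Cdc20b, for miR-449a-5p, at chr4:150068473-150068494 on the plus strand for miR-34a-5p, and at chr9:51103610-51103632 and chr9:51103574-51103595 on the minus strand for the arms of miR-34b, with miR-34c-3p downstream at chr9:51103044-51103065.

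The let-7 set is shown because its members carry 1 seed and differ at a few bases outside it, while their levels differed between the types by unequal amounts.
let-7a-5p: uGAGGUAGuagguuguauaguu
let-7c-5p: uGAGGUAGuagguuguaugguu
let-7b-5p: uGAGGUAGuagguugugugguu
let-7i-5p: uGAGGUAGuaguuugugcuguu
let-7g-5p: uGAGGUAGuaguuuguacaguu
Counted from 1 at the 5′ end, the change from let-7a-5p to let-7c-5p is A19G, that to let-7b-5p is A17G and A19G, that to let-7g-5p is G12U and U18C, and that to let-7i-5p is G12U, A17G, U18C and A19U. Tags with a sequencing error at such a base would be counted for the wrong member, and the authors' handling of such tags is unknown here.

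The arms of 2 hairpins of the miR-17-92 cluster, both in an exon of the host transcript Mir17hg on chromosome 14, are shown because the leading arm differed between the cell types.
miR-17-5p: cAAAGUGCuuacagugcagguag
miR-17-3p: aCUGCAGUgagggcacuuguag
miR-18a-5p: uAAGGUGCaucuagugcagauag
miR-18a-3p: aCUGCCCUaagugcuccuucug
They lie on the plus strand between chr14:115043684-115043706 for miR-17-5p and chr14:115043908-115043929 for miR-18a-3p. The last set holds leading members of other groups that were much higher in one type than in the other.
miR-470-5p: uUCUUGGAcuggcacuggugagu
miR-465a-3p: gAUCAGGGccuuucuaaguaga
miR-7232-3p: uGGUUGAAuucgacuuuggggc
miR-99a-5p: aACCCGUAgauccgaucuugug
miR-125b-5p: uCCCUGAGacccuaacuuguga
miR-1247-5p: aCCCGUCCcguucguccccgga
miR-1247-3p: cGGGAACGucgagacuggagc
In this set, miR-470-5p (chrX:66813995-66814017) and miR-465a-3p (chrX:66839063-66839084) sit on the minus strand of the X chromosome, and both arms of miR-1247 sit in an exon of Dio3os, from chr12:110278058-110278078 to chr12:110278094-110278115 on the minus strand. The miR-99a-5p gene (chr16:77598940-77598961) lies in an intron of Mir99ahg. The table places miR-7232-3p at chr6:81895590-81895611.

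Germ libraries held few miRNA tags among many of other kinds. They held 25186961 to 26081444 tags of all classes, of which 2.02, 3.80 and 2.95% were mature miRNA, or 524769, 957756 and 769666 tags. Leydig libraries held 22478611 to 23057864 tags, of which 55.1, 42.7 and 53.9% were mature miRNA, or 12451651, 9587857 and 12419072 tags. piRNA entries took 15.9 to 28.5% of germ and 1.38 to 1.74% of Leydig tags, and tags of intergenic sequence 41.9 to 46.0% against 3.44 to 4.30%. In bulk libraries such as these, fewer cells of a type and less RNA per cell cannot be told apart, and levels below are shares of mature tags unless said otherwise. The 10 leading miRNAs took 63.2 to 66.3% of mature tags in germ and 62.5 to 66.4% in Leydig libraries.

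The number of miRNAs seen depended on this difference in depth. At least 1 tag was found for 688, 761 and 773 miRNAs in the germ libraries and for 1053, 1030 and 1086 in the Leydig libraries. After each library was thinned at random to the lowest mature total, 524769 tags, the order turned: 688, 680 and 715 were found in germ and 590, 634 and 592 in Leydig libraries. The groups did not overlap on either count, in opposite directions. With 3 libraries against 3, an exact two-sided permutation test cannot give a p under 0.1, so these numbers and the shares of tags below are given per library with no test.

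Of 846 miRNAs tested, 535 were called between the types (edgeR's quasi-likelihood test, adjusted p under 0.05), 177 or 20.9% higher and 358 or 42.3% lower in germ cells. That split rested on the scaling. TMM, the trimmed-mean scaling of edgeR, gave germ libraries factors of 2.54, 1.99 and 1.26 and Leydig libraries 0.666, 0.779 and 0.632, and the median log2 fold change over all miRNAs was −2.14. With library totals as the scale the median was −0.82 and the split 240 higher to 226 lower. At matched depth the median was 0.03 over 469 miRNAs, with 194 (41.4%) higher and 157 (33.5%) lower. Under 4 scalings (TMM, RLE, totals, and totals without the 10 leading miRNAs) and at matched depth, 302 calls were made in the same direction. Of all miRNAs tested, these were 145 (17.1%) higher and 157 (18.6%) lower in germ cells. Where a list is counted below, members rose or fell by the full-depth TMM calls unless another fit is named. Those counts are to be read against the 20.9% higher and 42.3% lower of all miRNAs. Fold changes below are log2 values of the fit at full depth with TMM ± SE, followed by the value at matched depth, and a level is given in CPM, the tags of a miRNA scaled to a total of 1000000 mature tags in its library. By that measure the values of the types did not overlap for 243 (28.7%) higher and 329 (38.9%) lower miRNAs.

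**Figure D1:**
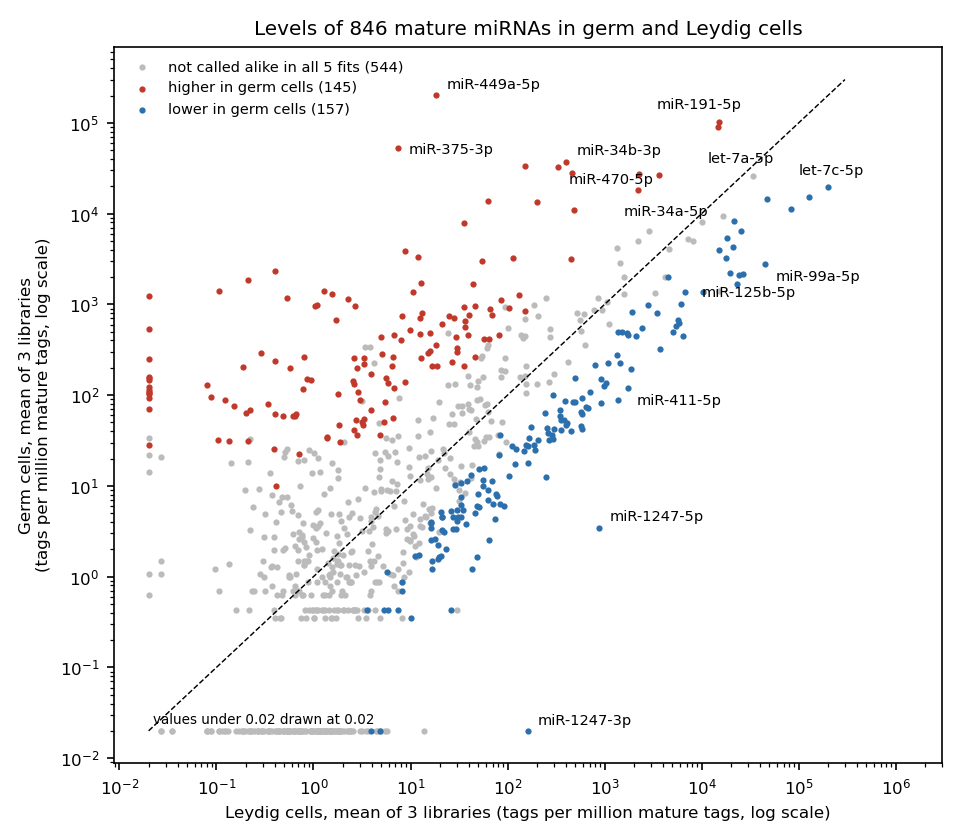
Mean level of each of 846 mature miRNAs in the 3 germ libraries (vertical) against the 3 Leydig libraries (horizontal), in CPM on log scales, with the line of equal level dashed. Red and blue points are the 145 higher and 157 lower miRNAs called in the same direction under 4 scalings and at matched depth, which fill opposite sides of the line; values under 0.02 are drawn at 0.02.

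The largest group of germ cell miRNAs by share was that of miR-34b/c and miR-449. Its members took 27.1, 25.8 and 33.0% of mature tags in the germ libraries and 0.0892, 0.127 and 0.0713% in the Leydig libraries, and all 5 tested members rose, each under all 4 scalings and at matched depth (median 6.36, at matched depth 8.18). miR-449a-5p, the most abundant miRNA of germ cells, stood at 176450, 189900 and 245170 CPM in germ and at 24.7, 17.7 and 12.2 in Leydig libraries. The germ libraries lay far above all Leydig libraries. The fold change was 12.15 ± 0.83 (adjusted p = 4.6e-10; 14.18 at matched depth).

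Both arms of miR-34b and miR-34c were present, with the 3p arms ahead of the 5p arms. miR-34b-3p stood at 44610, 27124 and 40715 CPM in germ and at 401, 534 and 272 in Leydig libraries (5.21 ± 0.49, adjusted p = 3.7e-08; 6.68 at matched depth). miR-34c-5p was at 16295, 12436 and 12116 CPM against 72.1, 69.4 and 46.7 (6.36 ± 0.50, adjusted p = 3.1e-09; 8.18). The germ and Leydig values did not overlap for either, and the 5 other cell types had this group at means of 0.0504 to 0.0823% of mature tags, against a Leydig mean of 0.0959%.

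miR-34a-5p, which has the same seed and is known as a p53 target in many tissues, went the other way. It stood at 8135, 10057 and 10020 CPM in germ libraries and at 16199, 20251 and 13719 in Leydig libraries, with no overlap. The fold change was −2.15 ± 0.39 (adjusted p = 6.3e-05), near the median of all miRNAs at that scaling, and −0.51 at matched depth (adjusted p = 0.088), where the call was lost. The seed GGCAGUG was summed over its 4 members with a reference sequence, miR-34a-5p, miR-34b-5p, miR-449a-5p and miR-449c-5p. miR-34c-5p had no reference sequence and was left out of the sum. These members took 18.7, 20.2 and 26.1% of germ tags and 1.62, 2.03 and 1.38% of Leydig tags (3.37 ± 0.40, adjusted p = 6.0e-07, 4.24 at matched depth). Thus 1 seed was carried mainly by miR-449a-5p in germ cells and mainly by miR-34a-5p in Leydig cells. Over all 614 seed families, 344 (56%) were called.

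miR-375-3p, best known from pancreatic islets, was among the leaders of germ cells and nearly absent from Leydig cells. It reached 46521, 70801 and 42646 CPM in germ libraries and 10.8, 5.53 and 6.04 in Leydig libraries (11.38 ± 0.63, adjusted p = 1.1e-11; 13.59 at matched depth). Its mean share in the other 5 types was 0.000803 to 0.0034% of mature tags, against 5.33% in germ cells.

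The miRNAs of the X-linked miR-506 family cluster (chrX:66776760-67988440, 38 mature loci in the RefSeq table), a fast-evolving group expressed mainly in the testis, were far higher in germ than in Leydig cells. They took 8.32, 9.22 and 7.27% of germ and 0.0314, 0.0817 and 0.0710% of Leydig mature tags. Of 28 tested members, 24 rose, 1 fell and 3 were not called, with a median of 6.90 (8.43 at matched depth). Of the 24, 22 were called in the same direction under the 4 scalings and at matched depth. Per tag of all classes 21 members were called higher and 4 lower, against 83 and 618 of all 846 miRNAs. miR-470-5p stood at 31477, 43085 and 23074 CPM in germ and at 135, 458 and 394 in Leydig libraries (5.21 ± 0.60, adjusted p = 3.2e-07; 6.93). The combined entry of miR-465a-3p, miR-465b-3p and miR-465c-3p, identical 3p products that cannot be told apart, was at 28822, 36809 and 34514 against 50.6, 248 and 156 CPM (6.48 ± 0.63, adjusted p = 5.1e-08; 8.13). In both cases the germ libraries did not overlap the Leydig libraries.

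Less abundant members of the cluster varied more in how they differed. miR-471-3p, named here after its values were seen, stood at 1200, 1229 and 1742 CPM in germ and at 0.883, 1.25 and 1.69 in Leydig libraries (8.77 ± 0.93, adjusted p = 1.5e-07; 9.64). miR-871-3p varied within germ cells, at 686, 4279 and 249 CPM, against 23.4, 14.2 and 1.21 in Leydig libraries. Its call (5.57 ± 1.93, adjusted p = 0.020; 7.43) was lost without germ library 2 (3.96, adjusted p = 0.076), Leydig library 2 (adjusted p = 0.057) or Leydig library 3 (adjusted p = 0.058). The member called lower, miR-201-3p, also named after its values were seen, was at 0 in the germ libraries. It was at 1.85, 0.834 and 0.564 CPM in Leydig libraries and too low to test at matched depth. From Leydig levels this low, zeros at the smaller depth of the germ libraries do not show a fall. Other cells of the testis also held these miRNAs: the same list had a share of 5.94 ± 1.84% in PTM and 6.37 ± 0.793% in Sertoli cells (SD, n = 3 each), against 0.00129 to 0.00745% in the 3 smooth muscle types.

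Other X-linked miRNAs did not share this direction. Outside the miR-506 family list, 46 X-linked miRNAs were tested, of which 2 rose and 29 fell. Of all miRNAs, 20.9% were called higher and 42.3% lower. The median of these X-linked miRNAs was −3.11, against −2.14 over all miRNAs, and at matched depth −1.47, against 0.03. Under all scalings and at matched depth 1 of the 46 was higher and 17 were lower, against 17.1% and 18.6% of all miRNAs.

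**Figure D2:**
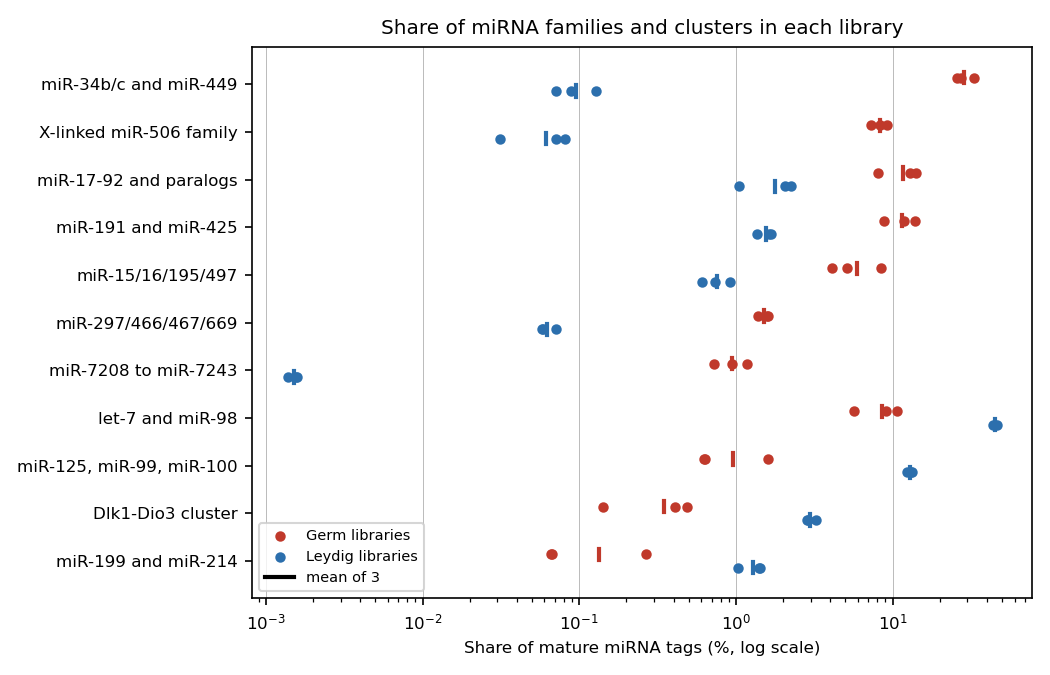
Share of mature tags taken by 11 families and clusters in each of 3 germ (red) and 3 Leydig (blue) libraries, in percent on a log scale; short bars are means of 3. In every row the libraries of the types do not overlap, and the gap is wide for miR-34b/c and miR-449 (28.6 against 0.0959% on average) and for miR-7208 to miR-7243 (0.948 against 0.0015%).

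Entries numbered miR-7208 to miR-7243, which have few described functions, were nearly restricted to germ cells among the types compared. They took 0.939, 1.18 and 0.720% of germ mature tags and 0.00158, 0.00138 and 0.00155% of Leydig tags. Of these 56 entries, 18 passed the filter on low counts. Most of these passed only through the germ libraries, where they were high, so counts and medians over them are not given as a result. miR-7232-3p stood at 1736, 2060 and 1798 CPM in germ libraries, and its Leydig counts were 4, 3 and 0 tags. It too needed germ libraries to pass the filter, so no test of it is given. miR-7219-3p and miR-7240-5p, named here after their values were seen, were low and lay the other way, with means of 6.80 and 4.38 CPM in Leydig cells. Without any one germ library only 7 members passed the filter.

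The miR-297, miR-466, miR-467 and miR-669 group, repeat-rich miRNAs of which most are known to lie in an intron of Sfmbt2, rose as well. Of 42 tested members 33 rose, none fell and 9 were not called, with a median of 3.22 (5.21 at matched depth) that moved to 0.58 per tag of all classes. The group took 1.57, 1.60 and 1.38% of germ and 0.0591, 0.0714 and 0.0575% of Leydig mature tags. miR-467d-5p was at 3592, 3099 and 2990 CPM against 80.8, 142 and 122 (3.43 ± 0.40, adjusted p = 3.8e-07; 5.19), and miR-467e-5p was at 612, 740 and 881 against 6.99, 11.4 and 5.88 (5.25 ± 0.57, adjusted p = 2.1e-07; 6.86). Many of these sequences are near-identical, so the split of tags among members is uncertain.

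The miR-290 cluster (chr7:3218638-3220837), known from embryonic stem cells and early germ cells, was low in both types and higher in germ cells, with 6 of 7 tested members called higher and none lower (median 4.03; 6.08 at matched depth over 4 members). miR-292a-3p, its most abundant member here, stood at 311, 205 and 281 CPM in germ and at 2.65, 11.1 and 5.88 in Leydig libraries (4.03 ± 0.63, adjusted p = 1.0e-05). The cluster took 0.0493 ± 0.0085% of germ and 0.00117 ± 0.00082% of Leydig mature tags (SD, n = 3 each). Per tag of all classes its median was 1.26. There 2 of 7 members were called higher and none lower, against 83 higher of all 846 miRNAs. miR-292a-3p was not called by that measure (1.26, adjusted p = 0.064).

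Several families took a larger share of the miRNA pool in germ cells, but not of all small RNA. miR-17-92 and its paralogs (miR-106b-25 and miR-106a-363), clusters known for promoting proliferation, took 12.9, 14.2 and 8.12% of germ against 2.26, 2.07 and 1.04% of Leydig mature tags. Of 16 tested members 10 rose, 1 fell and 5 were not called, with a median of 1.34 (3.14 at matched depth) that turned to −1.37 per tag of all classes. The member that fell was miR-17-3p, whose lower call did not hold (see the arms below). At matched depth all 13 tested members rose, against 41.4% of all miRNAs. miR-92a-3p, its leader, stood at 99299, 119230 and 52629 CPM in germ and at 19095, 16531 and 8393 in Leydig libraries (1.16 ± 0.34, adjusted p = 0.0050; 2.91 at matched depth), and turned to −1.45 per tag of all classes. miR-18a-5p, named here after its values were seen, rose from 12.9, 11.9 and 6.76 CPM in Leydig to 1275, 1032 and 1766 in germ libraries (5.74 ± 0.51, adjusted p = 2.1e-08; 7.08). It remained higher per tag of all classes (2.89).

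miR-191 and miR-425, neighbours at chr9:108568325-108568850, showed the same pattern. Their 4 products were called higher (median 1.88, at matched depth 3.60) and the median turned to −0.91 per tag of all classes. miR-191-5p stood at 124450, 79161 and 105430 CPM in germ and at 16132, 13145 and 15687 in Leydig libraries (1.39 ± 0.37, adjusted p = 0.0023; 3.07), with −1.41 per tag of all classes. The values of the types did not overlap.

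miR-15, miR-16, miR-195 and miR-497, which share a seed and are known for restraining the cell cycle, took 8.47, 5.10 and 4.13% of germ and 0.917, 0.738 and 0.605% of Leydig mature tags. Of 8 tested members 3 rose and 5 were not called, with a median of 0.95 that was 2.86 at matched depth and −1.88 per tag of all classes. At matched depth 6 of 6 rose. Of all miRNAs, 20.9% were called higher at full depth and 41.4% at matched depth. miR-16-5p was at 31602, 22033 and 29337 CPM against 2660, 2535 and 1616 (2.26 ± 0.42, adjusted p = 8.3e-05; 3.91; −0.54 per tag of all classes). miR-15b-5p was uneven between germ libraries, at 48316, 25198 and 7278 CPM, yet each was above its Leydig values of 4778, 3676 and 2433 (1.25 ± 0.42, adjusted p = 0.013; 3.18; −1.36 per tag of all classes).

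Smaller groups were also higher as a share of miRNA, with counts to be read against the 20.9% of all miRNAs called higher. In the miR-30 family 6 of 11 tested members rose, in the miR-183, miR-96 and miR-182 cluster 3 of 5, in the epithelial list of miR-200, miR-203 and miR-205 5 of 10, and in the list of miR-192, miR-194 and miR-215 3 of 3, with none lower in any of them. At matched depth the numbers were 10 of 10, 4 of 4, 5 of 5 and 2 of 2, against 41.4% of all miRNAs. The medians of these 4 lists at full depth, 1.31, 1.06, 2.39 and 1.81, turned to −1.55, −1.67, −0.25 and −1.06 per tag of all classes. miR-200c-3p, which keeps cells epithelial by repressing Zeb factors, stood at 899, 750 and 733 CPM in germ and at 14.4, 10.0 and 15.1 in Leydig libraries (4.49 ± 0.54, adjusted p = 5.6e-07; 6.60), and it stayed higher per tag of all classes (1.75). Of the striated muscle list only 2 of 6 rose, and 2 of 3 at matched depth, so nothing is read from its count. In it, miR-499-5p, known from the myosin gene Myh7b, was at 215, 191 and 305 against 0.482, 0.730 and 0 CPM (7.95 ± 1.34, adjusted p = 3.6e-05). The median of the striated muscle list, 1.34, turned to −1.42 per tag of all classes.

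When tags of all classes were taken as the library size, 618 miRNAs were called lower and 83 higher in germ cells. The 83 included all 5 of miR-34b/c and miR-449, 21 X-linked members, 16 of the miR-297 to miR-669 group, 3 of miR-17-92 and its paralogs and miR-375-3p, and 19 belonged to no list.

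**Figure D3:**
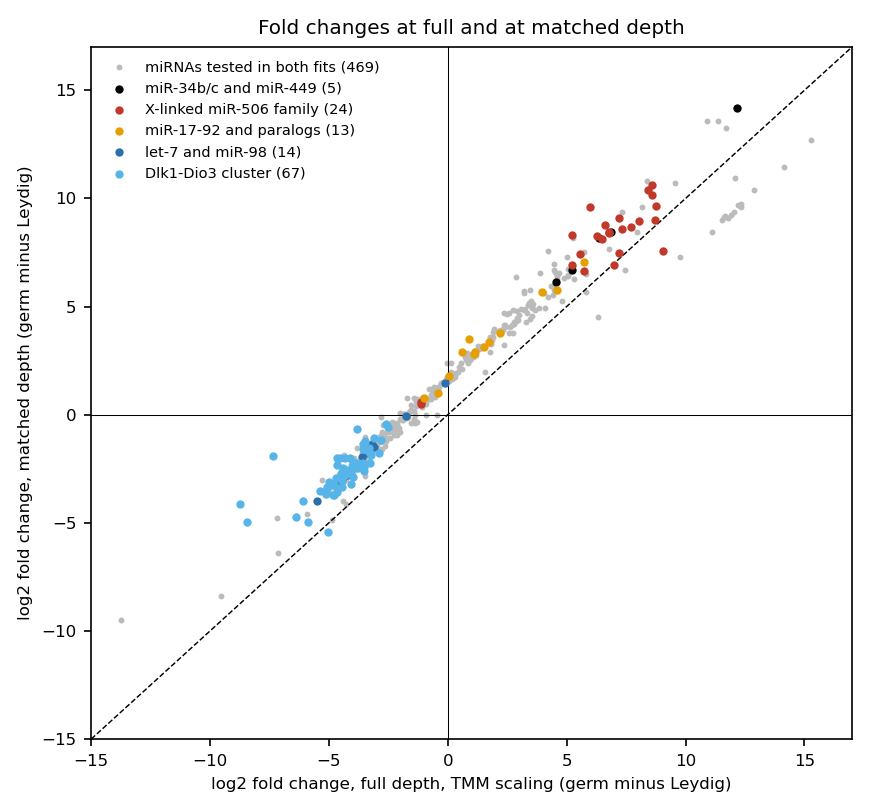
Log2 fold change (germ minus Leydig) of 469 miRNAs at full depth with TMM scaling (horizontal) and after all libraries were thinned to 524769 mature tags (vertical); the dashed line marks equal values and 5 groups are coloured. Most points lie above the line, while members of miR-34b/c and miR-449 and of the Dlk1-Dio3 cluster keep to opposite ends.

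The let-7 family was low in germ cells, while its mean share in Leydig cells, 45.0%, lay within the range of the other types. let-7, known for rising as cells differentiate, together with miR-98 took 45.3, 43.7 and 46.0% of mature tags in Leydig libraries and 5.64, 9.12 and 10.7% in germ libraries. Its mean share was 43.5% in PTM, 46.9% in Sertoli and 38.2 to 47.0% in the smooth muscle types. Of 19 tested members 15 fell, none rose and 4 were not called, with a median of −4.15 (−2.28 at matched depth, where 10 of 14 fell and let-7g-5p rose). let-7c-5p, the most abundant miRNA of Leydig cells, was at 188730, 206060 and 205300 CPM there and at 7642, 20745 and 30546 in germ libraries (−4.53 ± 0.55, adjusted p = 5.7e-07; −3.03). let-7b-5p was at 125100, 122440 and 139770 CPM in Leydig and at 5580, 15669 and 24489 in germ libraries (−4.26 ± 0.53, adjusted p = 6.8e-07; −2.77). For both, germ library 1 was lowest and no values overlapped.

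The members of the family were not lowered by the same amount. let-7a-5p stood at 24256, 30458 and 24057 CPM in germ and at 43781, 29016 and 29450 in Leydig libraries, which overlap. Its fold change of −1.76 ± 0.39 (adjusted p = 4.8e-04) was −0.07 at matched depth (adjusted p = 0.82). let-7g-5p, named here after its values were seen, was higher in each germ library, at 5410, 5472 and 8402 CPM, than in the Leydig libraries, at 3742, 2602 and 2356. It was not called at full depth (−0.13 ± 0.47, adjusted p = 0.81) and was called higher at matched depth (1.48, adjusted p = 9.9e-04). let-7i-5p lay between, at 3674, 4237 and 4905 in germ against 26047, 17095 and 19543 CPM (−3.62 ± 0.47, adjusted p = 1.2e-06; −1.98).

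let-7e-5p was at 484, 978 and 2749 CPM in germ and at 17161, 15314 and 12722 in Leydig libraries but was not called (−4.51 ± 3.26, adjusted p = 0.23). Libraries of other cell types held only 1 or 2 tags of it, far fewer than their replicates, which widened its spread in the shared fit. With only the germ and Leydig libraries it was called (−4.69, adjusted p = 8.8e-06). Within the compared types, 3 entries in germ and 3 in Leydig libraries had at most 5 tags in a library and at least 200 in another.

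**Figure D4:**
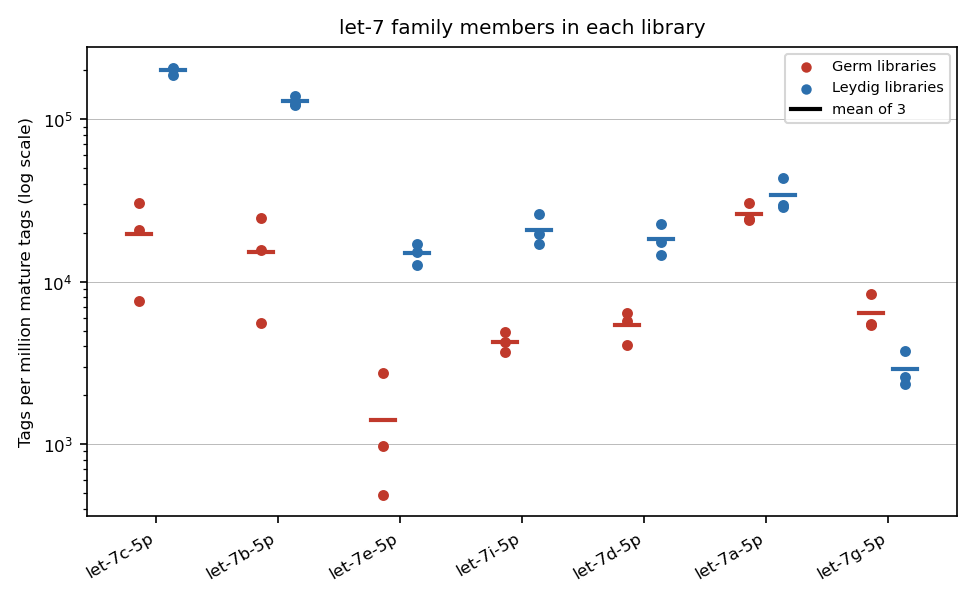
Level of 7 let-7 members in each of 3 germ (red) and 3 Leydig (blue) libraries, in CPM on a log scale, with bars at the means of 3. let-7c-5p and let-7b-5p are lower in every germ library, let-7a-5p overlaps, and let-7g-5p is higher in every germ library.

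The families with the seeds ACCCGUA (miR-99a, miR-99b, miR-100) and CCCUGAG (miR-125a, miR-125b, miR-351), of which several genes sit beside let-7 genes, fell together. miR-125, miR-99 and miR-100 took 13.3, 13.2 and 12.3% of Leydig and 0.631, 0.630 and 1.59% of germ mature tags, and all 11 tested members fell (median −4.65; at matched depth 10 of 10, median −3.26). miR-99a-5p was at 43975, 51914 and 40168 CPM in Leydig and at 1658, 1834 and 4824 in germ libraries (−5.18 ± 0.58, adjusted p = 2.5e-07; −3.71). miR-125b-5p was at 28582, 19927 and 31915 against 1532, 1278 and 3598 CPM (−4.86 ± 0.69, adjusted p = 3.6e-06; −3.33). Germ library 3 was the highest germ library for each, and still far under the Leydig values.

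Other abundant miRNAs of Leydig cells were lower in germ cells as well. miR-652-3p, from an intron of Tmem164 on the X chromosome, stood at 63855, 85316 and 98765 CPM in Leydig and at 4686, 15458 and 13597 in germ libraries (−4.14 ± 0.48, adjusted p = 4.0e-07; −2.57). miR-22-3p was at 56028, 39575 and 45681 against 15207, 11039 and 17722 (−3.01 ± 0.43, adjusted p = 3.8e-06; −1.38). miR-181a-5p, from a family known in lymphocyte development, was at 21074, 28001 and 27131 against 6340, 5897 and 6826 (−3.34 ± 0.35, adjusted p = 1.6e-07; −1.69). None of the 3 overlapped between the types.

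miR-1247 marked the opposite extreme to miR-449a. miR-1247-5p was at 680, 792 and 1140 CPM in Leydig libraries and counted 3, 2 and 2 tags in germ libraries (−9.53 ± 0.82, adjusted p = 1.2e-08; −8.39). miR-1247-3p was at 124, 229 and 128 CPM in Leydig and at 0 in germ libraries, at least 116-fold lower in germ cells with a floor of 3 tags over the group. The mean share of miR-1247 in the other 5 types was 0.000141 to 0.00131% of mature tags, against 0.103% in Leydig cells.

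The imprinted Dlk1-Dio3 cluster (chr12:109563710-109747949), whose miRNAs are made from the maternal chromosome, was lower in germ cells in most of its members. Of 90 tested members 79 fell, none rose and 11 were not called (median −4.30); at matched depth 52 of 67 fell and none rose (median −2.64). As the log2 ratio of shares, with the 17 members at 0 in germ cells set to the floor, the median was −2.58. Its share was 2.84, 3.22 and 2.90% in Leydig and 0.142, 0.487 and 0.408% in germ libraries. miR-127-3p, its leader, stood at 18102, 21318 and 18936 CPM in Leydig and at 808, 3556 and 2249 in germ libraries (−4.44 ± 0.50, adjusted p = 2.6e-07; −2.80). miR-411-5p was at 2111, 1434 and 1716 against 49.5, 138 and 172 (−5.10 ± 0.56, adjusted p = 2.1e-07; −3.66). The cluster was higher still in smooth muscle cells, at 7.71 to 9.69% of mature tags, and at 0.122 ± 0.011% in Sertoli cells (SD, n = 3) it was below the germ values.

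Lists of mesenchymal and hormone-responsive miRNAs held more members lower than higher in germ cells, to be read against the 42.3% of all miRNAs called lower. All 5 tested members of miR-199 and miR-214, 3 of 3 of miR-218, 6 of 6 of miR-322, miR-503 and miR-351, 4 of 4 of miR-132 and miR-212, 9 of 11 of miR-23, miR-27 and miR-24, 5 of 7 of the miR-29 family, 5 of 8 of the miR-181 family and 3 of 7 of miR-10 and miR-196 fell, and none rose. At matched depth the numbers were 4 of 4, 2 of 2, 4 of 6, 2 of 4, 8 of 10, 3 of 5, 5 of 6 and 2 of 5, against 33.5% of all miRNAs, and 1 member of the miR-181 list was then higher. The share for miR-10 and miR-196 was near that of all miRNAs in both fits. At full depth with TMM the miR-29 median of −2.14 was that of all miRNAs to 2 decimals. With library totals it was −0.725, against −0.82, but at matched depth it was −2.07 over 5 members, against 0.03. miR-10b-5p, from a Hox gene cluster, was at 4564, 4077 and 2518 CPM in Leydig and at 280, 212 and 469 in germ libraries (−4.77 ± 0.58, adjusted p = 5.9e-07; −3.21). miR-212-3p, known to respond to cAMP, was at 537, 302 and 215 against 38.1, 28.2 and 92.2 (−3.92 ± 0.58, adjusted p = 5.8e-06; −2.57).

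Of miR-21, miR-31, miR-221 and miR-222, 6 of 8 fell and 1 rose. At matched depth 4 of 7 fell and 2 rose, and 4 lower calls held under the 4 scalings and at matched depth. miR-31-5p overlapped between the types and was not called at full depth but was called higher at matched depth (0.33 ± 0.55, adjusted p = 0.60; 1.91, adjusted p = 0.0022). miR-21a-5p, known from injury and growth in many tissues, was at 19216, 18737 and 16063 CPM in Leydig and at 2275, 1703 and 5752 in germ libraries (−3.63 ± 0.53, adjusted p = 5.1e-06; −2.14).

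The smooth muscle miRNAs miR-143 and miR-145 took 0.230, 0.0630 and 0.458% of germ and 0.398, 0.454 and 0.588% of Leydig mature tags, which overlap, and miR-143-3p (−2.24 ± 0.62, adjusted p = 0.0033) was −0.75 at matched depth (adjusted p = 0.17) and was not called without germ library 1 (adjusted p = 0.063). Germ library 3 also had the highest germ share of miR-199 and miR-214, 0.267% against 0.0659 and 0.0667%, and of the miR-21 list, 0.803% against 0.315 and 0.235%. Whether somatic cells in that library had a part in these values was not tested. Haematopoietic miRNAs took 0.114 to 0.166% in germ and 0.203 to 0.306% in Leydig libraries. Of 5 tested, 2 fell and 3 were not called, near the 42.3% of all miRNAs called lower. The median of −0.76 was 0.49 with RLE scaling and 0.54 at matched depth, where 2 of 4 members rose and 1 fell. The member that fell most, miR-155-5p, is known from activated macrophages and lymphocytes. It was at 2152, 1702 and 1424 CPM in Leydig against 396, 356 and 625 in germ libraries (−3.21 ± 0.52, adjusted p = 1.8e-05, −1.55 at matched depth). Endothelial miR-126 took 0.0403 to 0.162% in germ and 0.00969 to 0.0331% in Leydig libraries, with 1 of 2 products called higher at full depth (median 2.72, −0.22 per tag of all classes). Liver miR-122-5p was not called (−2.35, adjusted p = 0.10).

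Set against the labels, the germ libraries carried the germ cell miRNAs miR-34b/c and miR-449 at 25.8% or more of their mature tags, and the Leydig libraries at 0.127% or less. The arms of miR-202, a miRNA of gonadal somatic cells, are given one by one. miR-202-3p was at 91.5, 412.4 and 198.8 CPM in germ and 240, 363 and 650 in Leydig libraries, and its call (−2.21 ± 0.79, adjusted p = 0.020) was lost at matched depth (−0.56, adjusted p = 0.37) and without Leydig library 3, germ library 1 or germ library 3 (adjusted p = 0.17, 0.22 and 0.090). miR-202-5p was at 61.0, 75.2 and 90.9 CPM in germ and 23.77, 13.04 and 55.64 in Leydig libraries, with no overlap; it was not called at full depth (−0.07 ± 0.66, adjusted p = 0.93) and was called higher at matched depth (1.64, adjusted p = 0.018). No miRNA list can stand in for the steroid-making genes that define Leydig cells, and messenger RNA was not analysed here.

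The balance of the arms of a hairpin is a ratio within a library and needs no scaling between libraries. Where an arm has few tags, the ratio still depends on the counts added to each arm and so on depth. Of 107 hairpins with enough tags, 27 (25.2%) were called between the types (limma, adjusted p under 0.05), 18 with relatively more 5p and 9 with relatively less 5p in germ cells. In 3 of them the leading arm itself differed, and all 3 were called. For miR-17, the 5p arm took 66.4, 64.7 and 74.4% of the tags of both arms in germ and 25.6, 19.6 and 15.3% in Leydig libraries (log2 difference of the 5p to 3p ratio 3.14 ± 0.47, adjusted p = 1.1e-04). For miR-18a it took 92.5, 90.5 and 97.6% against 37.9, 38.5 and 26.3% (5.02 ± 0.55, adjusted p = 5.6e-06). For miR-140, a miRNA of cartilage named here after its values were seen, it took 62.6, 66.1 and 72.7% against 43.6, 33.5 and 27.5% (1.95 ± 0.35, adjusted p = 7.7e-04). In each case all germ libraries were above 50% and all Leydig libraries below it, on 278 or more tags per library. With 5 counts instead of 0.5 added to each arm, 23 of the 27 calls were made again. The calls of miR-145a and miR-149 (2.24 and 2.58) were lost, at −0.37 and −0.13. Their 3p counts in the germ libraries were 0, 0 and 2 for miR-145a and 0, 0 and 1 for miR-149. Those of miR-132 and miR-331 were lost as well.

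As single miRNAs, both named here after their values were seen, only the 5p arm of miR-17 held its call at both depths. miR-17-5p was at 497.4, 371.7 and 501.5 CPM in germ and at 45.5, 47.5 and 25.0 in Leydig libraries (2.21 ± 0.50, adjusted p = 5.9e-04; 3.77; −0.59 per tag of all classes). miR-17-3p was at 252, 203 and 173 against 132, 194.8 and 139 CPM, which overlap, and was called lower at full depth (−0.98 ± 0.34, adjusted p = 0.016) and higher at matched depth (0.79, adjusted p = 0.038). The full-depth call was lost without any one of the 6 libraries (adjusted p = 0.076 to 0.35) and with only the germ and Leydig libraries (adjusted p = 0.15), so no difference of this arm is shown. The 5p arm rose relative to the 3p arm under every setting run for this hairpin.

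Other hairpins changed their minor arm. miR-339 had 42.9, 33.8 and 30.3% 5p in germ and 4.04, 2.85 and 7.31% in Leydig libraries (3.56 ± 1.06, adjusted p = 0.019), a call lost without germ library 1 (adjusted p = 0.075) or Leydig library 2 (adjusted p = 0.078). miR-31 had 89.9, 89.6 and 89.5% against 97.6, 98.2 and 97.7% (−2.37 ± 0.32, adjusted p = 5.0e-05), and miR-92b had 0.951, 1.68 and 0.889% against 5.07, 7.72 and 4.60% (−2.30 ± 0.51, adjusted p = 0.0033). miR-126a (3.06 ± 0.57, adjusted p = 9.6e-04) and miR-143 (3.57 ± 0.96, adjusted p = 0.011) had relatively more 5p in germ cells, at shares under 1% in Leydig cells. That of miR-143 rested on 1, 1 and 0 tags of 5p in the germ libraries and was lost without germ library 1 (adjusted p = 0.059) or 2 (adjusted p = 0.055) and at matched depth (adjusted p = 0.089). The steepest loss of 5p, for miR-541 (−6.74 ± 1.02, adjusted p = 1.1e-04), rested on 3p counts of 0 in germ and of 0 or 1 in Leydig libraries, so the 0.5 counts added to each arm set it and no change of arm is shown. miR-331 and miR-669f (−3.37 and −2.86) were called less 5p, and both calls were lost without germ library 2 (adjusted p = 0.10 and 0.057) or Leydig library 2 (adjusted p = 0.096 and 0.087), that of miR-669f also without germ library 1 (adjusted p = 0.088).

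**Figure D5:**
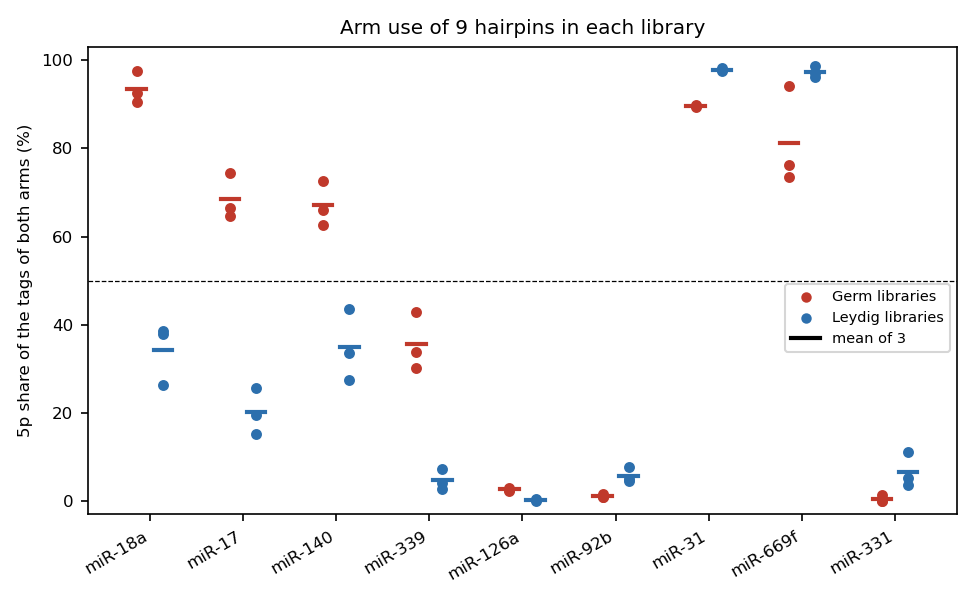
Share of the 5p arm among the tags of both arms of 9 hairpins in each of 3 germ (red) and 3 Leydig (blue) libraries, in percent, with bars at the means of 3 and a dashed line at 50%. The germ and Leydig points of miR-18a, miR-17 and miR-140 lie on opposite sides of that line.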

How the data were processed

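The authors deposited 1 table of small RNA tag counts per entry, with TPM values beside them. Per the file headers each of 21 libraries has a count column and a TPM column. In the deposited TPM columns a value is a count scaled to a fixed total over all classes. The submitters' processing notes name Bowtie2 and mm10; no version, mismatch setting or treatment of tags with several matches was found in the labels. All 42 value columns belong to labelled libraries, and the TPM values served only to check the totals.

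Raw counts of mature entries were tested with edgeR 4.0.16 (quasi-likelihood, TMM scaling) in R 4.3.3 over all 21 libraries, for miRNAs that reached 10 counts in 3 or more libraries, with Benjamini-Hochberg adjustment and a threshold of 0.05. The sum over each seed (bases 2 to 8), taken over entries with a reference sequence, was tested in the same way. Arm ratios were tested with limma 3.58.1 on the log2 ratio of 5p to 3p counts, 0.5 added to each, where both arms together reached 20 counts in each of the 6 libraries. For matched depth, mature tags were thinned at random to the lowest library total. Alternatives were other scalings, filters, DESeq2 1.42.0, voom, a replicate block, fits on the 6 libraries, and leaving out each library. The tests were also run on simulated counts, that of single miRNAs with 200 changed miRNAs, and the outcomes are not given here. Values of 0 were given a floor of 3 counts over the group, which covers counting error only.

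Members and lists were chosen with earlier results of these data known. The rule for miRNAs named was the 15 largest called changes in each direction among those whose mean reached 50 CPM in one of the types, the 8 most abundant of each type, the 4 most abundant of each of 32 lists, the 5 largest called arm differences in each direction and the 8 leading seed families of each type. The rule picked 141, of which the text gives a part. Mature sequences matched 1329 of 1556 entries by name, and host genes are from GENCODE.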

Additional observations from a re-analysis of the deposited data

How the results depend on the processing

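The 535 called miRNAs became 351 at matched depth and 307 at matched depth with only the 6 libraries, both with fewer miRNAs tested. The 177 higher became 83 per tag of all classes. The 358 lower became 237 with RLE scaling, 226 with library totals, 618 per tag of all classes, 235 with DESeq2, 157 at matched depth and 134 at matched depth with the 6 libraries. Without any one library 430 to 491 were called, 156 to 181 higher and 252 to 317 lower. The 344 seed families became 527 per tag of all classes and 288 to 334 without a library. The 27 arm ratios became 53 with 5 counts added to each arm, of which 23 were among the 27, and 15 to 27 without a library. The mean difference in miRNAs detected, −315.7, was 89 at matched depth and −256.7 for at least 10 tags.

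With the replicate number as a block 525 miRNAs were called (178 higher, 347 lower), with 24 arm ratios and 338 seed families. Same-numbered libraries did not deviate together from the means of their types (correlations 0.012, −0.0098 and −0.039). With 3 libraries in each type this cannot decide whether the numbers pair them. With no filter 562 of 1544 were called.

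Per tag of all classes the fold change turned to −1.45 for miR-92a-3p, −1.06 for miR-93-5p, −0.59 for miR-17-5p, −1.41 for miR-191-5p, −0.54 for miR-16-5p, −1.36 for miR-15b-5p, −1.08 for miR-30b-5p and −0.69 for miR-182-5p. Medians turned to −1.37 for miR-17-92, −1.67 for miR-183, −0.91 for miR-191, −1.42 for striated muscle, −1.55 for miR-30, −1.88 for miR-15, −0.22 for miR-126, −0.25 for epithelial and −1.06 for intestinal lists. The log2 ratios of their shares turned to −1.37, −1.24, −1.31, −1.09, −2.22, −1.23 and −1.81 for all of these but the epithelial list and to −1.30 for the intestinal list.

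miR-17-3p turned to 0.31 with RLE and DESeq2, 0.43 with totals, 0.79 at matched depth and 0.34 there with 6 libraries. let-7g-5p turned to 1.05 with RLE and DESeq2, 1.15 with totals, 0.65 without the 10 leading miRNAs, 1.48 at matched depth, 1.12 there with 6 libraries, 0.42 with the filter in 6 libraries and −0.34 to 0.63 without a library. The miR-202 median turned to 0.10 with RLE and DESeq2, 0.23 with totals, 0.54 at matched depth and 0.13 there with 6 libraries. The haematopoietic median turned to 0.49 with RLE, 0.50 with DESeq2, 0.61 with totals, 0.10 without the leading miRNAs, 0.54 at matched depth, 0.37 there with 6 libraries and 0.23 without Leydig library 1, in a range of −1.35 to 0.23 without a library. The miR-7208 to miR-7243 median of 11.67, over members that passed the filter mostly through germ libraries, was 1.48, −4.23 and 1.22 without germ library 1, 2 and 3, each with 7 of 18 members left, in a range of −4.23 to 12.01 without a library. The cause was not tested for the others. Depth limits what can be seen in germ libraries, where 137 tested miRNAs were at 0.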
